A study of Mus musculus with 8 samples.

Results

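The 54 genes described here encode MYC and the nucleolar machinery that makes ribosomes. They were taken by gene symbol from the deposited expression table, which lists 55414 genes, and all 54 were found in it. By role they were grouped as 2 MYC transcription factors (*Myc* and *Mycn*), 3 polyamine enzymes and coactivators, 5 genes of RNA polymerase I and rDNA transcription, 5 nucleolar phosphoproteins and helicases, 7 core proteins of small nucleolar ribonucleoproteins (snoRNPs), 14 factors of the small subunit processome and 18 factors of large subunit assembly.

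Expression was measured by RNA-seq in B16F10 cells, a mouse melanoma line, in 8 libraries that formed 4 groups of 2. WT cells and CypD KO cells, in which *Ppif* (the gene of the mitochondrial peptidyl-prolyl isomerase cyclophilin D, CypD) had been targeted by CRISPR/Cas9 with puromycin selection of transfected clones, were kept at 21% O2 for 24 h. Control cells (stable transfectants of pcDNA without insert) and CypD OE cells (stable transfectants of pcDNA-CypD), both selected with G418, were kept at 1% O2 for 24 h. How many clones each line represents, and whether the 2 libraries of a group came from separate cultures, is not given in the sources used here, so that p-values measure only the spread between these libraries, which may be technical. Control and WT cells differed in oxygen and also in vector and selection, and these cannot be told apart. CypD KO and WT cells differed in *Ppif* targeting and also in transfection and selection of clones, which cannot be told apart either. The same holds for CypD OE and WT cells, which differed in oxygen, vector, insert and selection.

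As background, MYC is a basic helix-loop-helix transcription factor that dimerises with MAX and binds E-box sequences, and the genes of ribosome synthesis are among its best known targets. In the nucleolus, RNA polymerase I transcribes the rDNA repeats into a long precursor, snoRNPs modify and help to cleave it, the small subunit processome assembles on its first part, and a separate set of factors builds the large subunit. In melanoma cells, as in other proliferating cells, nucleolar size and ribosome output are known to follow growth.

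*Ppif* itself was at 50.7 and 49.99 TPM in WT, 10.4 and 12.1 TPM in CypD KO, 44.6 and 42.3 TPM in Control and 50.3 and 49.3 TPM in CypD OE. It was therefore lower in CypD KO than in WT (log2 fold change -2.07 ± 0.073 (adjusted p = 3.81e-06)). Both CypD OE libraries lay above both Control libraries, but the difference was not called (0.19 ± 0.073 (adjusted p = 0.0794)), and they overlapped WT. CypD OE therefore names these libraries by their label throughout. Whether the pcDNA-CypD transcript carries the untranslated regions of the gene is not given in the sources used here. RSEM may assign reads of a transgene without them unlike those of the gene itself, so that this value need not hold all of its RNA. Each library held approximately 25700000 to 29900000 fragments on genes, as estimated from the steps between low values, and 1 fragment on 1000 effective bases was worth 0.082 to 0.0975 TPM, far below the level of every member except *Mycn*. All 7 melanocyte markers were expressed, and 0 of 4 epithelial markers were above 0. The summed melanocyte list was at 15665 to 15755 TPM in WT, 12433 to 12587 TPM in CypD KO, 20446 to 20984 TPM in Control and 13586 to 13758 TPM in CypD OE. Its markers did not move alike. In CypD KO *Tyr* was higher (167 and 147 TPM, against 37.4 and 41.3 in WT) and *Pmel* lower (1530 and 1478 TPM, against 2375 and 2309 in WT). Of the other cell type lists, 3 of 6 fibroblast, 1 of 4 macrophage and 1 of 3 endothelial markers reached 1 TPM in any library. The summed fibroblast list was at 15.6 to 17.7 TPM in WT, 34.2 to 37.2 TPM in CypD KO, 19 to 21 TPM in Control and 9.23 to 11.3 TPM in CypD OE, with the defining *Dcn* listed at 0. The higher fibroblast sum in CypD KO came from *Postn* (8.04 and 8.07 TPM in WT, 34.8 and 31.2 TPM in CypD KO), whereas *Col1a2* was lower there (1.09 and 2.17 TPM, against 9.03 and 6.87 TPM in WT). The summed macrophage list was at 3.5 to 3.84 TPM in WT and 22.3 to 23.4 TPM in CypD KO, nearly all from *Cd68*, with *Adgre1* listed at 0 and *Ptprc* at up to 0.02 TPM.

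Because MYC:MAX dimers bind the E-box, the sequence CACGTG was searched in the window from 250 bases before to 50 bases after the start of the canonical transcript (GRCm39, GENCODE M39). The motif reads the same on both strands. It was present in 8 of the 53 members with a tested expression level (15.1%), against 1183 of 11296 windows of all tested protein-coding genes (10.5%). Below are 30 bases of each of the 4 members in which it lay upstream of the start and clear of the window's edge, 5′ to 3′ on the plus strand, on which all 4 genes lie, with the E-box in capitals. They are shown because they are the letters a MYC:MAX dimer could read near the canonical start of members whose RNA is described below.
*Srm*, chr4:148675776-148675805: agggcctctcccCACGTGgcccggcagccg
*Imp4*, chr1:34478777-34478806: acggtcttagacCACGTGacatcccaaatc
*Nop2*, chr6:125108774-125108803: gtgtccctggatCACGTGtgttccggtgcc
*Nop56*, chr2:130115791-130115820: gccatgagcaacCACGTGgtgccgagcagc
The first base of the motif lay 152 bases before the start in *Srm*, 143 in *Imp4*, 34 in *Nop2* and 32 in *Nop56*. In *Imp4* the motif lies inside the annotated gene, which begins at 34478568, and is upstream only of the canonical transcript. In *Fbl*, *Pes1* and *Wdr43* it lay just downstream of the start, and in *Ebna1bp2* at the outer edge of the window. The *Myc* window did not hold these letters. A match is a description of the sequence only, and binding was not measured.

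The members were lower in CypD KO than in WT nearly throughout. Of the 53 members that reached 1 TPM in at least 2 libraries, limma called 50 lower and 0 higher (adjusted p under 0.05, adjusted over the 13526 genes tested), where 18.4% of all genes tested were called lower and 30.1% higher. At an unadjusted p under 0.05, the counts were likewise 50 lower and 0 higher. In 51 members both CypD KO libraries lay below both WT libraries, against 29.6% of all genes. The members had a median of -0.49 on the log2 scale, against 0.09 for the 13526 genes tested. Over all genes, 4066 were called higher and 2486 lower, and after rescaling the libraries to the median gene 3290 were higher and 3364 lower, with 52 members lower. Because TPM is a share of a library, these values do not show the amount of RNA per cell, and in bulk samples fewer cells with the RNA and less RNA per cell cannot be told apart.

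In the libraries labelled CypD OE, compared with Control at the same 1% O2, 42 members were called higher and 2 lower, where 19.0% of all genes tested were called higher and 18.3% lower. Both CypD OE libraries lay above both Control libraries in 46 members, against 34.8% of all genes. On the log2 scale the members had a median change of 0.33, and all genes 0.002. The 2 members called lower were *Gar1* and *Bop1*, and the 9 not called were *Noc3l*, *Polr1c*, *Lyar*, *Utp4*, *Noc4l*, *Imp4*, *Ddx56*, *Mrto4* and *Nip7*.

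The Control libraries at 1% O2 were also compared with WT at 21% O2. In Control, 49 members were called lower and 0 higher, against a background of 12.1% of all genes lower and 12.1% higher, and at an unadjusted p under 0.05 the counts were 51 lower and 0 higher. Both Control libraries lay below both WT libraries in 52 members, against 29.8% of all genes. The middle member changed by -0.395 on the log2 scale, and the middle gene of the whole table by 0.012. The members not called were *Gar1*, *Polr1c*, *Nip7* and *Noc4l*. Leaving out a WT or Control library lowered the counts of all genes from 1634 higher to 939 to 1073, and from 1635 lower to 983 to 1082.

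Between the libraries labelled CypD OE at 1% O2 and WT at 21% O2, 36 members were not called, 15 were lower and 2 (*Myc* and *Nop16*) were higher, where 13.7% of all genes were called lower and 14.0% higher. The median change of the members was -0.11 on the log2 scale, against 0.01 over all genes, and in 31 members the mean TPM of the CypD OE libraries was within 10% of the WT mean. In 42 members the CypD OE mean was below the WT mean. At an unadjusted p under 0.05, the counts were 19 lower and 3 higher. Both CypD OE libraries lay below both WT libraries in 36 members and above both in 8. The share of all genes without overlap is not given for this comparison. The 1891 genes called higher over all genes became 1203, 1075 and 1167 without WT replicate 1, CypD OE replicate 1 or CypD OE replicate 2. The 1853 called lower became 1220 and 1128 without WT replicate 1 or CypD OE replicate 2. The comparisons with WT share its 2 libraries, and those with Control share the Control libraries.

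The summed level of the 54 members was highest in WT, followed by CypD OE, Control and CypD KO. It was 12354 and 12614 TPM in WT, 8257 and 8344 TPM in CypD KO, 9111 and 8874 TPM in Control, and 11241 and 11393 TPM in CypD OE. As shares of all transcripts these sums were 1.24% and 1.26%, 0.826% and 0.834%, 0.911% and 0.887%, and 1.12% and 1.14%. The groups did not overlap, and *Npm1*, *Ncl* and *Nop58* were the most abundant members in each of them. The sums weigh these genes most, and *Npm1* alone had a mean of 3529 TPM in WT, 2105 in CypD KO, 2629 in Control and 3183 in CypD OE. Between CypD KO and Control the median log2 fold change of the members was only -0.05. The mitochondrial transcript *mt-Atp8*, the most abundant gene of every library, ranged from 39468 TPM in a Control library to 57827 TPM in a CypD OE library, and its part in the differences of TPM was not tested beyond the rescaling.

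**Figure D1:**
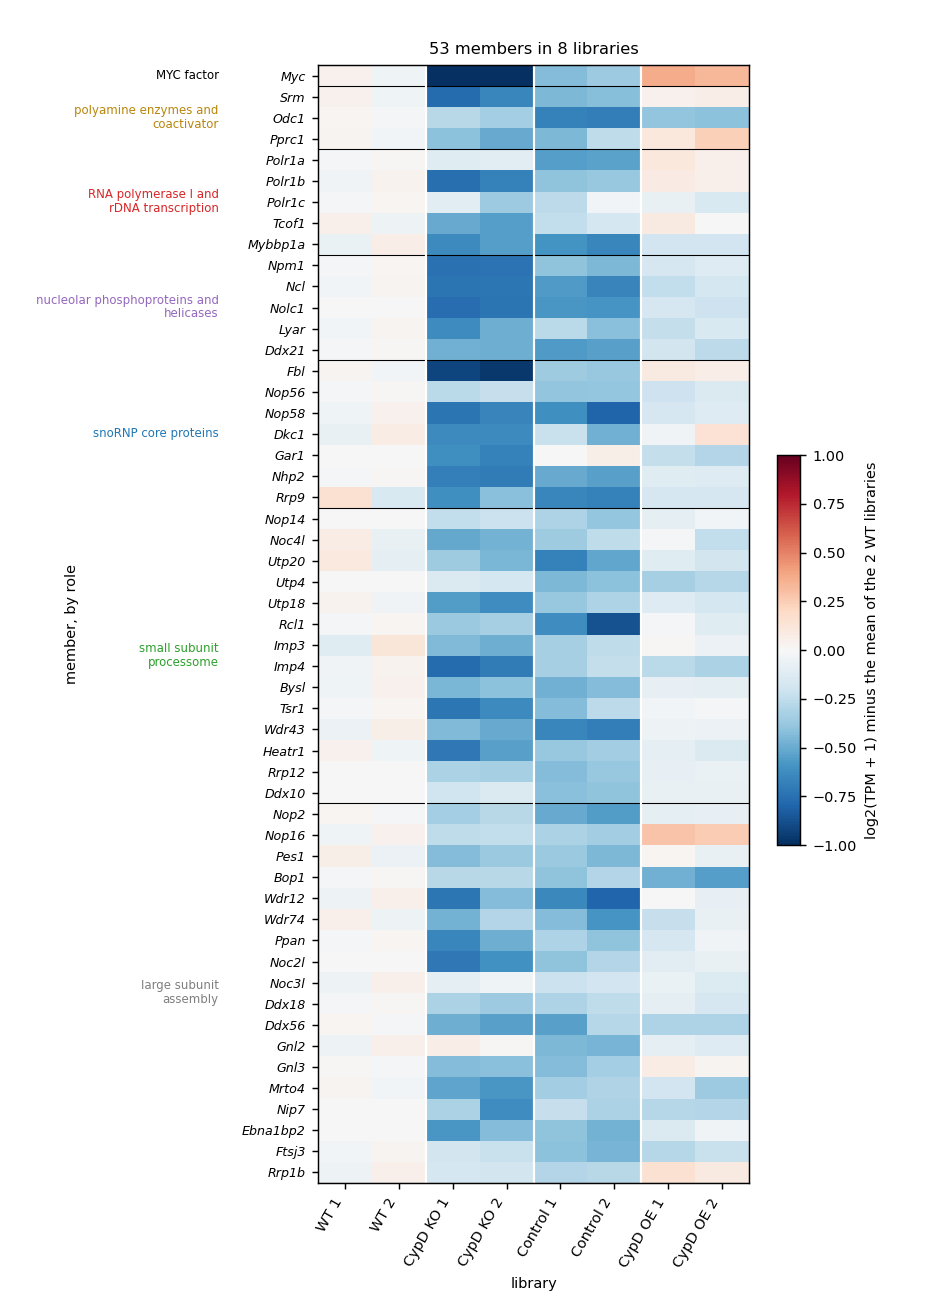
Heat map of 53 members (rows, ordered by role) in the 8 libraries (columns), as log2(TPM + 1) minus the mean of the 2 WT libraries, with blue for lower and red for higher values and the colour scale ending at -1 and 1. The CypD KO and Control columns are blue in nearly every row, and the CypD OE columns are paler in most rows, with *Myc* and *Nop16* red, *Bop1* and *Odc1* the deepest blue, and *Ddx56*, *Utp4*, *Imp4*, *Nip7* and *Mrto4* among the other blue rows.

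*Myc* was at 99.1 and 93.4 TPM in WT, 45.5 and 44.4 TPM in CypD KO, 71.1 and 74.8 TPM in Control and 125 and 122 TPM in CypD OE. *Myc* lies on chromosome 15, from 61857227 to 61862223 (GRCm39). The 4 groups did not overlap, and their order was CypD KO, Control, WT and CypD OE, from 44.9 ± 0.771 TPM (SD, n = 2) to 123 ± 2.32 TPM (SD, n = 2). *Myc* fell by 1.08 on the log2 scale in CypD KO against WT, to 46.7% of the WT mean (SE 0.047, adjusted p = 8.46e-06), the largest decrease among the members. Relative to Control, the libraries labelled CypD OE held more *Myc* by 0.75 ± 0.047 (adjusted p = 6.38e-05), also the largest increase among the members. Control was below WT by a log2 fold change of -0.40 ± 0.047 (adjusted p = 0.00186), and CypD OE was above WT by 0.35 ± 0.047 (adjusted p = 0.00233). The remaining neighbours in the order, CypD KO and Control, differed by -0.69 ± 0.047 (adjusted p = 5.97e-05), a comparison across oxygen levels that was added after the data had been seen. In the comparisons other than that of CypD KO with Control, whose alternative fits are not given here, *Myc* kept its call and direction in every alternative fit. *Mycn*, the paralogue of neural tissue, was listed at 0 in 6 libraries and at 0.04 TPM in WT replicate 2 and CypD KO replicate 2, and was not tested.

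Polyamines stabilise ribosomal RNA, and the enzymes of their synthesis are classical MYC targets. *Srm* was at 105 and 98.9 TPM in WT, 59.5 and 64.4 TPM in CypD KO, 74.5 and 75.9 TPM in Control and 105 and 107 TPM in CypD OE. *Srm*, spermidine synthase, thus followed the order of *Myc*, except that WT and CypD OE overlapped, and its log2 fold change was -0.71 ± 0.052 (adjusted p = 6.81e-05) in CypD KO against WT and 0.49 ± 0.052 (adjusted p = 0.000543) in CypD OE against Control. *Odc1* was at 482 and 469 TPM in WT, 391 and 376 TPM in CypD KO, 297 and 294 TPM in Control and 361 and 359 TPM in CypD OE. *Odc1*, ornithine decarboxylase, the rate-limiting enzyme of polyamine synthesis, was lowest in Control instead. Its log2 fold change was -0.31 ± 0.030 (adjusted p = 0.000227) in CypD KO, -0.68 ± 0.030 (adjusted p = 3.38e-05) in Control against WT and 0.28 ± 0.030 (adjusted p = 0.00056) in CypD OE against Control. With -0.40 ± 0.030 (adjusted p = 0.000302) against WT, the CypD OE libraries stayed below WT. *Pprc1*, a coactivator of the PGC-1 family, changed by -0.46 ± 0.080 (adjusted p = 0.00327) in CypD KO and by 0.52 ± 0.080 (adjusted p = 0.00272) in CypD OE against Control, but its exons overlap those of *Ldb1* on the other strand, whose mean level was 172 TPM, and whether the counting used strand is not given in the sources used here.

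Counts by role, here and below, stand against the shares of all genes tested. These were 18.4% lower and 30.1% higher in CypD KO, and 12.1% lower and 12.1% higher in Control against WT. In CypD OE against Control they were 19.0% higher and 18.3% lower. Of the 5 genes of RNA polymerase I and rDNA transcription, 4 were lower in CypD KO and 4 were higher in CypD OE against Control. *Polr1b* was at 38.8 and 41.0 TPM in WT, 23.3 and 24.6 TPM in CypD KO, 30.0 and 30.5 TPM in Control and 42.3 and 41.4 TPM in CypD OE. *Polr1b*, which with *Polr1a* forms the catalytic core of RNA polymerase I, was lower in CypD KO by a log2 fold change of -0.71 ± 0.054 (adjusted p = 7.83e-05) and higher in CypD OE than in Control by 0.46 ± 0.054 (adjusted p = 0.000894). *Polr1a* was at 117 and 119 TPM in WT, 108 and 109 TPM in CypD KO, 80.2 and 81.1 TPM in Control and 127 and 122 TPM in CypD OE. *Polr1a*, the largest and catalytic subunit, differed in shape: its CypD KO libraries were only slightly below WT (-0.12 ± 0.035 (adjusted p = 0.0304)), while its Control libraries were far below WT (-0.54 ± 0.035 (adjusted p = 0.000169)). In CypD OE it was higher than in Control by 0.62 ± 0.035 (adjusted p = 3.87e-05) and did not differ from WT beyond the threshold (0.08 ± 0.035 (adjusted p = 0.153)). The median of the 710 genes tested on chromosome 6, where *Polr1a* lies, was 0.26 in CypD KO against WT. The part of the chromosome in the *Polr1a* value was not tested. The CypD KO call of *Polr1a* was lost in each fit that left out a WT or CypD KO library, with an adjusted p of 0.0766 to 0.113, and without the trend in eBayes (0.0935). *Polr1c* was at 103 and 106 TPM in WT, 97.3 and 81.2 TPM in CypD KO, 87.3 and 103 TPM in Control and 99.1 and 93.8 TPM in CypD OE. *Polr1c*, a subunit shared with RNA polymerase III, had replicates that differed by as much as the groups, and was not called in any of these comparisons, with log2 fold changes of -0.23 ± 0.102 (adjusted p = 0.104) in CypD KO and 0.03 ± 0.102 (adjusted p = 0.878) in CypD OE against Control. *Tcof1*, encoding treacle, a factor of rDNA transcription, changed by -0.53 ± 0.058 (adjusted p = 0.000406) and 0.26 ± 0.058 (adjusted p = 0.013) in these comparisons. *Mybbp1a*, a nucleolar MYB-binding protein, changed by -0.59 ± 0.052 (adjusted p = 0.000147) and 0.43 ± 0.052 (adjusted p = 0.000979).

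**Figure D2:**
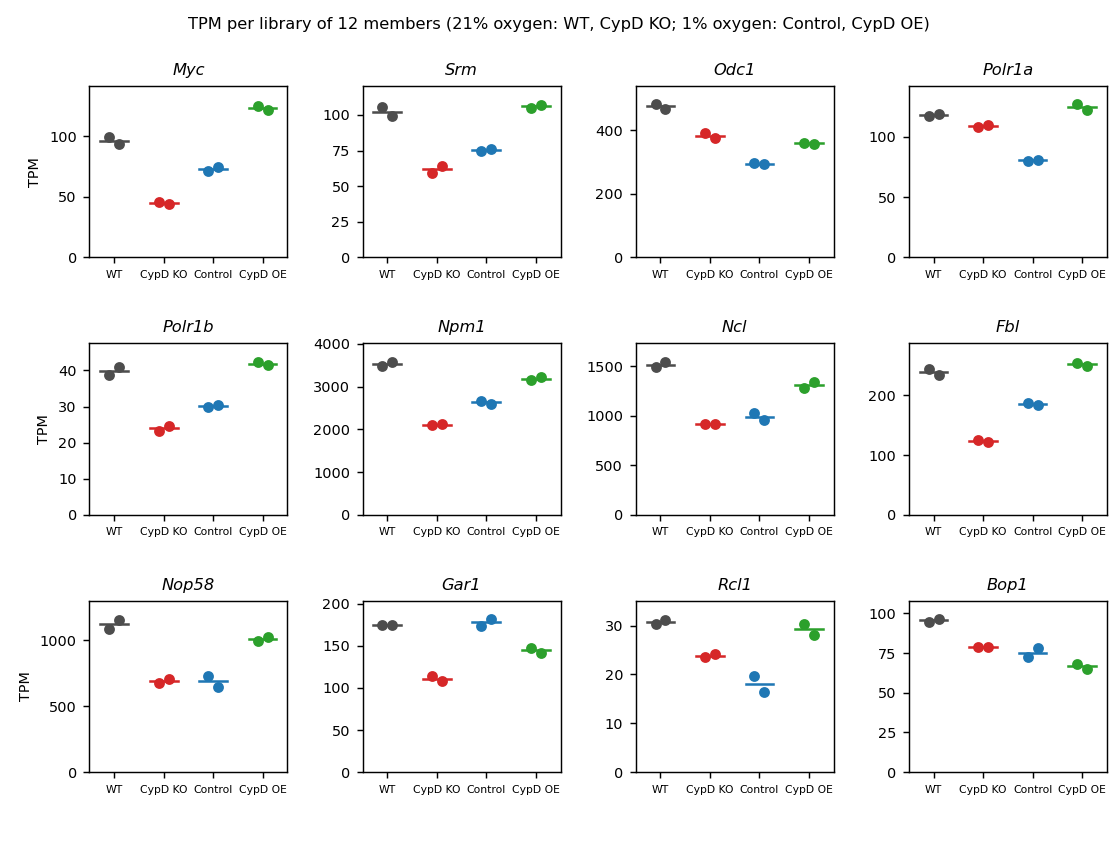
TPM (y axis, from 0) of 12 members in the 8 libraries, with 1 point per library and a line at the mean of the 2 libraries of WT, CypD KO (21% O2), Control and CypD OE (1% O2). *Myc*, *Srm*, *Polr1b*, *Npm1*, *Ncl* and *Fbl* are lowest in CypD KO, *Polr1a*, *Odc1* and *Rcl1* are lowest in Control, and *Bop1* is lowest in CypD OE.

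All 5 nucleolar phosphoproteins and helicases were lower in CypD KO, by a median of -0.73 on the log2 scale, and 4 of them were higher in CypD OE than in Control. *Npm1* was at 3483 and 3574 TPM in WT, 2098 and 2113 TPM in CypD KO, 2671 and 2587 TPM in Control and 3142 and 3224 TPM in CypD OE. *Npm1*, nucleophosmin, a chaperone of the granular part of the nucleolus, was the most abundant member on the TPM scale, which is per length. It fell to 59.7% of WT in CypD KO (-0.75 ± 0.026 (adjusted p = 3.81e-06)) and was 0.28 ± 0.026 (adjusted p = 0.000361) higher in CypD OE than in Control. *Ncl* was at 1490.0 and 1544 TPM in WT, 913 and 919 TPM in CypD KO, 1025 and 961 TPM in Control and 1282 and 1339.9 TPM in CypD OE. *Ncl*, nucleolin, which binds nascent rRNA, fell to 60.4% of WT in CypD KO (-0.73 ± 0.039 (adjusted p = 1.89e-05)) and to 65.4% of WT in Control (-0.61 ± 0.039 (adjusted p = 0.000167)). *Nolc1* was at 251 and 253 TPM in WT, 148 and 151 TPM in CypD KO, 168 and 167 TPM in Control and 225 and 218 TPM in CypD OE. *Nolc1*, the snoRNP chaperone Nopp140, had the largest decrease of this role, with log2 fold changes of -0.75 ± 0.030 (adjusted p = 5.81e-06) in CypD KO and 0.40 ± 0.030 (adjusted p = 0.000125) in CypD OE against Control. In all 3 of these genes the CypD OE libraries lay above Control and below WT, and their difference from WT was called (*Npm1* -0.15, *Ncl* -0.21, *Nolc1* -0.19), although that of *Ncl* was lost without WT replicate 2 (adjusted p = 0.0521) or CypD OE replicate 1 (0.0534), and that of *Npm1* without the trend in eBayes (0.0757). *Ddx21*, an RNA helicase of rDNA transcription and processing, changed by -0.49 ± 0.036 (adjusted p = 6.92e-05) in CypD KO and 0.33 ± 0.036 (adjusted p = 0.000618) in CypD OE. *Lyar*, a nucleolar growth regulator, was lower in CypD KO (-0.56 ± 0.070 (adjusted p = 0.00076)) and not called in CypD OE (0.15 ± 0.070 (adjusted p = 0.148)).

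The 7 snoRNP core proteins were all lower in CypD KO, and they were the group in which *Gar1* stood apart in the other comparisons. *Fbl* was at 244 and 235 TPM in WT, 126 and 122 TPM in CypD KO, 187 and 184 TPM in Control and 255 and 250 TPM in CypD OE. *Fbl*, fibrillarin, the methyltransferase of C/D snoRNPs, fell to 51.8% of WT in CypD KO (-0.94 ± 0.034 (adjusted p = 4.03e-06)), the next largest decrease after *Myc*. It was higher in CypD OE than in Control by 0.44 ± 0.034 (adjusted p = 0.000145) and did not differ from WT beyond the threshold (0.08 ± 0.034 (adjusted p = 0.143)). *Nop58* was at 1082 and 1155 TPM in WT, 673 and 708 TPM in CypD KO, 731 and 642 TPM in Control and 995 and 1022 TPM in CypD OE. *Nop58*, which with *Nop56* forms the scaffold of C/D snoRNPs, was lowered to similar levels in CypD KO (-0.70 ± 0.065 (adjusted p = 0.000189)) and Control (-0.71 ± 0.065 (adjusted p = 0.000616)), and its CypD OE libraries were 0.56 ± 0.065 (adjusted p = 0.000843) above Control. *Nop56*, with an E-box just before its start, changed less in CypD KO, by -0.25 ± 0.031 (adjusted p = 0.000708), and by 0.21 ± 0.031 (adjusted p = 0.00228) in CypD OE.

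The H/ACA snoRNP, which converts uridine to pseudouridine in rRNA, has *Dkc1* as its enzyme and *Nhp2* and *Gar1* among its other core subunits. *Gar1* was at 175 and 174 TPM in WT, 114 and 109 TPM in CypD KO, 174 and 182 TPM in Control and 148 and 142 TPM in CypD OE. The *Gar1* gene lies on chromosome 3, from 129618560 to 129625045. *Gar1* was lower in CypD KO than in WT (-0.65 ± 0.040 (adjusted p = 3.47e-05)), like its partners. Its Control libraries overlapped WT (0.03 ± 0.040 (adjusted p = 0.666)), and its CypD OE libraries were below Control (-0.29 ± 0.040 (adjusted p = 0.00171)) and below WT (-0.27 ± 0.040 (adjusted p = 0.00379)). *Dkc1* and *Nhp2* had log2 fold changes of -0.64 and -0.69 in CypD KO. Against Control, CypD OE was higher for *Dkc1* (0.41 ± 0.098 (adjusted p = 0.0172)) and *Nhp2* (0.40 ± 0.029 (adjusted p = 0.000112)). *Rrp9*, a protein of the snoRNP that guides the first cleavages, changed by -0.52 ± 0.107 (adjusted p = 0.00698) in CypD KO and 0.50 ± 0.107 (adjusted p = 0.011) in CypD OE against Control.

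The small subunit processome folds and cuts the first part of the rRNA precursor. All 14 of its members were called lower in CypD KO, with log2 fold changes from -0.74 to -0.16 and a median of -0.45. In CypD OE against Control 11 were called higher and 0 lower, and at an unadjusted p under 0.05 the counts were 12 and 0. *Imp4* was at 116 and 122 TPM in WT, 69.5 and 72.9 TPM in CypD KO, 94.7 and 101 TPM in Control and 98.8 and 95.8 TPM in CypD OE. *Imp4*, which links the guide snoRNA to the precursor and holds an E-box upstream of its canonical start, had the largest decrease of the 14 in CypD KO (-0.74 ± 0.049 (adjusted p = 4.81e-05)). Its CypD OE and Control libraries overlapped (-0.01 ± 0.049 (adjusted p = 0.939)), and both groups lay below WT (-0.29 and -0.29).

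*Rcl1* was at 30.2 and 31.2 TPM in WT, 23.5 and 24.1 TPM in CypD KO, 19.6 and 16.3 TPM in Control and 30.4 and 28.1 TPM in CypD OE. *Rcl1*, a protein related to RNA cyclases that acts in processing of the precursor, was lowest in Control (-0.75 ± 0.091 (adjusted p = 0.00206)), with a smaller decrease in CypD KO (-0.35 ± 0.091 (adjusted p = 0.0172)) that was lost when any WT or CypD KO library was left out (adjusted p = 0.0545 to 0.0806). Its CypD OE libraries were 0.68 ± 0.091 (adjusted p = 0.0016) above Control and overlapped WT. *Wdr43* was at 209 and 227 TPM in WT, 160.3 and 153 TPM in CypD KO, 139 and 134 TPM in Control and 211 and 209 TPM in CypD OE. *Wdr43*, a WD-repeat subunit of the processome, showed the same order, at -0.47 ± 0.047 (adjusted p = 0.000244) in CypD KO, -0.67 ± 0.047 (adjusted p = 0.000227) in Control against WT and 0.62 ± 0.047 (adjusted p = 0.000133) in CypD OE against Control. *Utp4* was at 84.5 and 85.4 TPM in WT, 76.9 and 75.3 TPM in CypD KO, 61.9 and 63.9 TPM in Control and 67.3 and 69.4 TPM in CypD OE. *Utp4*, a WD-repeat subunit that binds the first part of the precursor, was slightly lower in CypD KO (-0.16 ± 0.039 (adjusted p = 0.0149), but 0.0649 without WT replicate 2 and 0.0708 without CypD KO replicate 2), lower in Control (-0.43 ± 0.039 (adjusted p = 0.000612)) and, with -0.31 ± 0.039 (adjusted p = 0.00194), still below WT in CypD OE. Its CypD OE difference from Control was not called (0.12 ± 0.039 (adjusted p = 0.0526)), but was without the filter or with a minimum of 5 TPM (0.0492), and *Chtf8*, which overlaps it on the other strand, had a higher mean level of 105 TPM.

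The remaining members of this role were *Nop14*, *Noc4l*, *Utp20*, *Utp18*, *Imp3*, *Bysl*, *Tsr1*, *Heatr1*, *Rrp12* and *Ddx10*. *Tsr1*, a factor of late small subunit maturation, had the largest CypD KO change of these (-0.68 ± 0.064 (adjusted p = 0.000201)) and *Ddx10*, a helicase, the smallest (-0.17 ± 0.050 (adjusted p = 0.0259)). In CypD OE against Control the range was from 0.17 for *Noc4l*, not called, to 0.45 for *Utp20*. For *Bysl* and *Heatr1* genes on the other strand, *Ccnd3* at a mean of 162 TPM and *Lgals8* at 41.3 TPM, were above the member's own level. Among all members, 21 have exons that overlap those of a gene on the other strand at a mean of 1 TPM or more. In 4 of the 21 that gene was above the member's own level. The 21 include *Nop16* (*Higd2a*, 60.8 TPM) and *Bop1* (*Hsf1*, 48.2 TPM).

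Among the 18 members of large subunit assembly, 16 were lower in CypD KO and 0 higher, with the same counts at an unadjusted p under 0.05. In Control against WT 17 were lower, and in CypD OE against Control 13 were higher and 1 was lower. *Pes1*, *Bop1* and *Wdr12* encode the subunits of the PeBoW complex, which is needed for maturation of the large subunit rRNA. *Wdr12* was at 77.7 and 83.3 TPM in WT, 48.5 and 59.3 TPM in CypD KO, 51.0 and 45.96 TPM in Control and 80.4 and 75.9 TPM in CypD OE. *Wdr12* was lower in CypD KO (-0.58 ± 0.101 (adjusted p = 0.00327)) and in Control (-0.72 ± 0.101 (adjusted p = 0.00333)), and CypD OE was above Control (0.68 ± 0.101 (adjusted p = 0.00237)). *Pes1* had smaller changes in the same directions, -0.40 ± 0.056 (adjusted p = 0.00117) in CypD KO and 0.38 ± 0.056 (adjusted p = 0.00222) in CypD OE.

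*Bop1* was at 94.8 and 96.7 TPM in WT, 78.9 and 78.7 TPM in CypD KO, 72.3 and 77.9 TPM in Control and 68.2 and 65.0 TPM in CypD OE. The *Bop1* libraries thus stepped down from WT through CypD KO and Control to CypD OE, with CypD KO and Control close to each other (0.07 ± 0.049 (adjusted p = 0.298)). *Bop1*, on chromosome 15 from 76337155 to 76362079, was lower in CypD KO (-0.28 ± 0.049 (adjusted p = 0.00329)), Control (-0.35 ± 0.049 (adjusted p = 0.00337)) and CypD OE (-0.52 ± 0.049 (adjusted p = 0.000643)) than in WT. Its decrease from Control to CypD OE (-0.17 ± 0.049 (adjusted p = 0.0321)) passed the threshold, but not when any library other than Control replicate 1 was left out (adjusted p = 0.05 to 0.15). The median of the 523 genes tested on chromosome 15, where *Myc* also lies, was -0.18 in this comparison, and the part of the chromosome in the *Bop1* value was not tested. Relative to that median, the *Myc* log2 fold change was 0.93 in CypD OE against Control, and it was -1.20 relative to the chromosome's median of 0.12 in CypD KO against WT.

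*Nop16* was at 72.1 and 76.8 TPM in WT, 62.4 and 62.6 TPM in CypD KO, 59.7 and 58.2 TPM in Control and 90.7 and 89.0 TPM in CypD OE. *Nop16*, a small nucleolar protein and known MYC target, was the only member apart from *Myc* called higher in CypD OE than in WT (0.27 ± 0.044 (adjusted p = 0.00524)). Against Control its increase was 0.60 ± 0.044 (adjusted p = 0.00012), and in CypD KO it fell by 0.25 on the log2 scale (adjusted p = 0.00353). Over the 504 genes tested on chromosome 13, where *Nop16* lies, the CypD OE median was 0.26 against WT and 0.25 against Control. The part of the chromosome in the *Nop16* values was not tested. *Ddx56* was at 65.3 and 63.3 TPM in WT, 45.6 and 43.9 TPM in CypD KO, 43.9 and 52.7 TPM in Control and 51.6 and 51.6 TPM in CypD OE. *Ddx56*, a helicase of large subunit assembly, was lower than WT in CypD KO (-0.51 ± 0.082 (adjusted p = 0.00224)) and CypD OE (-0.31 ± 0.082 (adjusted p = 0.0311)), and its CypD OE libraries lay between the 2 Control libraries. Its CypD OE call against WT was lost when any WT, CypD KO or CypD OE library was left out (adjusted p = 0.0547 to 0.125).

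*Gnl2* and *Noc3l* were the members of this role that were not called in CypD KO. *Gnl2* was at 70.5 and 75.5 TPM in WT, 76.5 and 73.6 TPM in CypD KO, 53.1 and 52.5 TPM in Control and 68.2 and 66.7 TPM in CypD OE. *Gnl2*, a nucleolar GTPase of large subunit export, overlapped between CypD KO and WT (0.04 ± 0.048 (adjusted p = 0.524)), yet was lower in Control than in WT (-0.46 ± 0.048 (adjusted p = 0.00104)) and higher in CypD OE than in Control (0.35 ± 0.048 (adjusted p = 0.00171)). *Noc3l* had -0.07 ± 0.059 (adjusted p = 0.389) in CypD KO and -0.21 ± 0.059 (adjusted p = 0.046) in Control. *Gnl3*, nucleostemin, the related GTPase, was in contrast called in CypD KO (-0.43 ± 0.041 (adjusted p = 0.000213)) and in CypD OE (0.44 ± 0.041 (adjusted p = 0.000325)).

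*Nop2*, an rRNA methyltransferase with an E-box before its start, changed by -0.31 ± 0.038 (adjusted p = 0.000655) in CypD KO and 0.44 ± 0.038 (adjusted p = 0.000229) in CypD OE. *Noc2l* had the largest CypD KO change of this role (-0.66 ± 0.052 (adjusted p = 8.94e-05)), followed by *Wdr12*, *Ppan* and *Mrto4*, while *Rrp1b* (-0.18 ± 0.048 (adjusted p = 0.0188)) and *Ftsj3* (-0.20 ± 0.041 (adjusted p = 0.00641)) were among the smallest that were called. *Mrto4* and *Nip7* were at a log2 fold change of 0.05 and -0.02 in CypD OE against Control, with overlapping libraries. The other members of this role, *Wdr74*, *Ddx18* and *Ebna1bp2*, were lower in CypD KO by 0.38, 0.34 and 0.51 on the log2 scale and higher in CypD OE by 0.36, 0.15 and 0.35. Pseudogene copies of *Fbl* and *Mrto4* are annotated, and they reached at most 6.66 TPM (*Fbl-ps2*) and 1.26 TPM (*Mrto4-ps2*).

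The comparisons within each oxygen level share no libraries, but they share 1 estimate of the spread of each gene. Of the 53 members, 41 were called lower in CypD KO than in WT and higher in CypD OE than in Control, which held for 694 of all genes tested (5.13%). Most of this overlap follows from the single counts, since 50 of the 53 were called lower and 42 higher. The sizes of the changes did not follow each other across members (Pearson's r = -0.161 over 53 members, which are not independent replicates). *Fbl* and *Npm1* had large CypD KO and moderate CypD OE changes, and *Polr1a* and *Rcl1* the reverse. The lowest mean was that of CypD KO in 28 members, of Control in 24 and of CypD OE in 1 (*Bop1*), and the highest was that of WT in 40, of CypD OE in 11, of CypD KO in 1 (*Gnl2*) and of Control in 1 (*Gar1*).

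**Figure D3:**
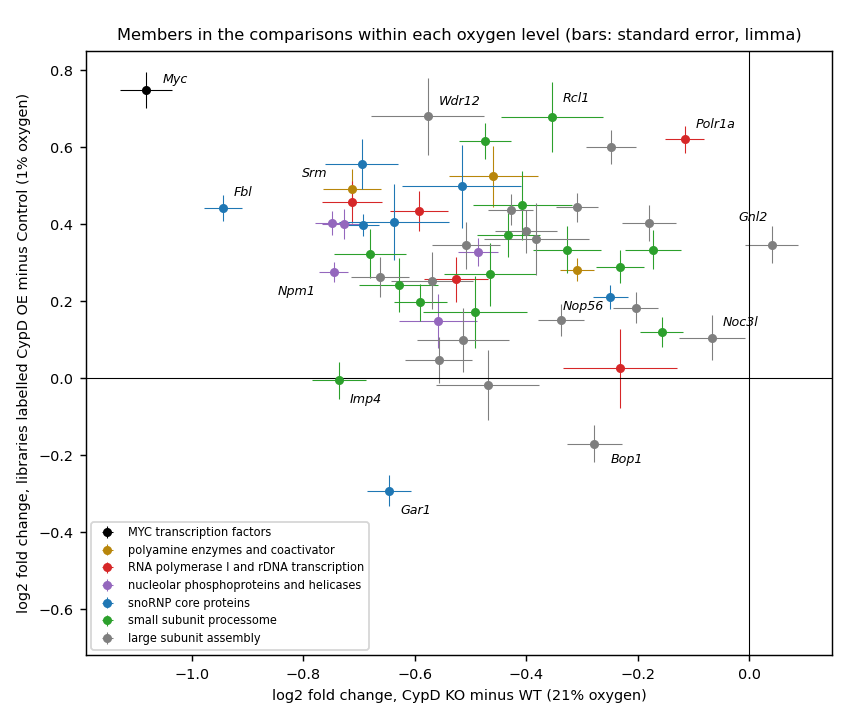
Log2 fold change of 53 members in CypD KO against WT at 21% O2 (x axis) and in the libraries labelled CypD OE against Control at 1% O2 (y axis), with standard errors from limma and colours by role. *Myc* is farthest to the upper left, most points lie left of 0 and above 0, and *Gar1* and *Bop1* lie below 0 on the y axis.

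CypD KO at 21% O2 was also set beside Control at 1% O2, after the data had been seen, to order the groups with lower levels. Of the members, 16 were lower in CypD KO, 10 were higher and 27 were not called, where 16.5% of all genes tested were called lower and 27.4% higher. *Myc*, *Gar1*, *Fbl* and *Imp4* had the lowest CypD KO values relative to Control, at -0.69, -0.67, -0.58 and -0.45. *Gnl2*, *Polr1a*, *Rcl1* and *Odc1* had the highest, at 0.50, 0.43, 0.39 and 0.37. These cells differed in genotype, oxygen, vector and selection, which cannot be told apart.

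Across the 8 libraries, the members whose log2(TPM + 1) followed *Myc* most closely were *Fbl* (Pearson's r = 0.984), *Tcof1* (0.980), *Polr1b* (0.973), *Srm* (0.964) and *Tsr1* (0.949). *Ftsj3* (0.147), *Odc1* (0.139), *Noc3l* (0.065), *Utp4* (-0.062), *Gnl2* (-0.124) and *Bop1* (-0.157) followed it least. The 8 points fall into 4 pairs of replicates and share the scaling of each library, so that these values are a description of the group means.

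Further genes of the same pathways, 208 in 11 lists, were examined in the same fit. The MAX network regulates MYC through partners that compete for MAX. The counts of each list stand against all genes tested, of which 30.1% were called higher and 18.4% lower in CypD KO, and 19.0% higher and 18.3% lower in CypD OE against Control. Of the 9 tested genes of the network, 3 were higher and 0 lower in CypD KO, with the same counts at an unadjusted p under 0.05. This share of higher genes was close to that of all genes. In CypD OE against Control 1 was higher and 3 were lower. The MYC antagonists *Mxd4* and *Mxi1* were higher in CypD KO, by 1.45 ± 0.091 (adjusted p = 3.53e-05) and 0.81 ± 0.080 (adjusted p = 0.000246). They were lower in CypD OE than in Control, by -0.84 ± 0.091 (adjusted p = 0.00059) and -1.38 ± 0.080 (adjusted p = 4.33e-05). *Mxi1* was at 20.2 and 21.0 TPM in WT, 34.8 and 38.99 TPM in CypD KO, 43.3 and 41.9 TPM in Control and 14.9 and 16.7 TPM in CypD OE, an order opposite to that of *Myc* within each oxygen level. *Mnt*, another antagonist, was higher in Control than in WT (0.69 ± 0.096 (adjusted p = 0.00325)) and lower in CypD OE than in Control (-0.45 ± 0.096 (adjusted p = 0.0108)), and *Mxd3* was higher in both CypD KO (0.37) and CypD OE (0.46).

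Of 10 genes of MYC stability and MYC cofactors, 5 were lower and 1 higher in CypD KO, and 2 were higher and 1 lower in CypD OE against Control. *Fbxw7*, the ubiquitin ligase subunit that marks MYC for degradation, was the one higher in CypD KO (0.47 ± 0.059 (adjusted p = 0.00078)). The helicase *Ruvbl1* was lower in CypD KO (-0.43 ± 0.035 (adjusted p = 0.000111)) and higher in CypD OE (0.41 ± 0.035 (adjusted p = 0.000226)), and *Ruvbl2* was lower in CypD KO (-0.49 ± 0.059 (adjusted p = 0.000632)). The kinase gene *Aurka* was lower in both, at -0.25 in CypD KO and -0.13 in CypD OE against Control.

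Outside the nucleolus, 18 of 25 MYC-associated target genes were lower and 5 higher in CypD KO, and 14 were higher and 5 lower in CypD OE against Control. The mitochondrial chaperone gene *Hspd1* was lower in CypD KO (-0.96 ± 0.020 (adjusted p = 8.3e-07)) and in Control (-0.51 ± 0.020 (adjusted p = 1.88e-05)). Several genes of this list did not follow it. *Mthfd2*, a mitochondrial folate enzyme, was lower in Control (-0.65 ± 0.041 (adjusted p = 0.000167)) and higher in CypD OE than in Control (1.11 ± 0.041 (adjusted p = 6.26e-06)). It was slightly higher in CypD KO than in WT (0.15 ± 0.041 (adjusted p = 0.023)). *Cdkn1a*, a cell cycle inhibitor that MYC is known to repress, was higher in CypD KO (1.51 ± 0.040 (adjusted p = 1.24e-06)). *Cdkn1a* had the same direction as *Myc* in Control against WT (-0.71 ± 0.040 (adjusted p = 0.000101)) and in CypD OE against Control (0.29 ± 0.040 (adjusted p = 0.00171)). In CypD OE against WT (-0.42 ± 0.040 (adjusted p = 0.000643)) and CypD KO against Control (2.22 ± 0.040 (adjusted p = 9.82e-07)) its direction was opposite to that of *Myc*. The cyclin gene *Ccnd2* was higher in CypD KO (1.25 ± 0.032 (adjusted p = 1.17e-06)) and in CypD OE (0.24 ± 0.032 (adjusted p = 0.00172)). *Ldha*, lactate dehydrogenase, which low oxygen also induces, was at 1277 and 1236 TPM in WT, 2215 and 2167 TPM in CypD KO, 3706 and 3853 TPM in Control and 948 and 895 TPM in CypD OE, with log2 fold changes of 0.80 ± 0.036 (adjusted p = 9.49e-06) in CypD KO and -2.04 ± 0.036 (adjusted p = 4.57e-07) in CypD OE against Control. *Ndrg1* is known to be repressed by MYC and induced by low oxygen. It was lower in CypD OE than in Control by a log2 fold change of -1.25 ± 0.052 (adjusted p = 1.06e-05), higher in Control than in WT (0.51 ± 0.052 (adjusted p = 0.000943)) and lower in CypD KO than in WT (-0.22 ± 0.052 (adjusted p = 0.0112)).

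Of 18 other subunits and factors of RNA polymerase I, 5 were lower and 3 higher in CypD KO, and 2 were higher and 2 lower in CypD OE against Control. The CypD OE counts were a smaller share than in all genes, in either direction. *Taf1d*, of the promoter selectivity factor, was lower in CypD KO (-0.46 ± 0.041 (adjusted p = 0.000151)) and higher in CypD OE (0.45 ± 0.041 (adjusted p = 0.000298)), and *Polr1e* was lower in CypD KO (-0.54 ± 0.081 (adjusted p = 0.00161)). Subunits shared by the RNA polymerases had the largest changes in other directions, with *Polr2l* higher in CypD KO (0.55 ± 0.116 (adjusted p = 0.00748)) and *Polr2f* (-0.56 ± 0.089 (adjusted p = 0.00324)) and *Polr2k* (-0.50 ± 0.067 (adjusted p = 0.00153)) lower in CypD OE than in Control. Of 16 genes of RNA polymerase III, which makes tRNA and the smallest rRNA, 8 were lower and 2 higher in CypD KO, and 10 were higher and 3 lower in CypD OE. The alternative subunits *Polr3g*, which MYC is known to induce, and *Polr3gl* moved in opposite directions in CypD KO, at -0.99 ± 0.085 (adjusted p = 0.000133) and 1.00 ± 0.160 (adjusted p = 0.0022). *Polr3g* was higher in CypD OE than in Control (0.75 ± 0.085 (adjusted p = 0.000748)). *Maf1*, the repressor of RNA polymerase III, was higher in Control than in WT (0.72 ± 0.127 (adjusted p = 0.00824)) and lower in CypD OE than in Control (-0.48 ± 0.127 (adjusted p = 0.0249)).

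**Figure D4:**
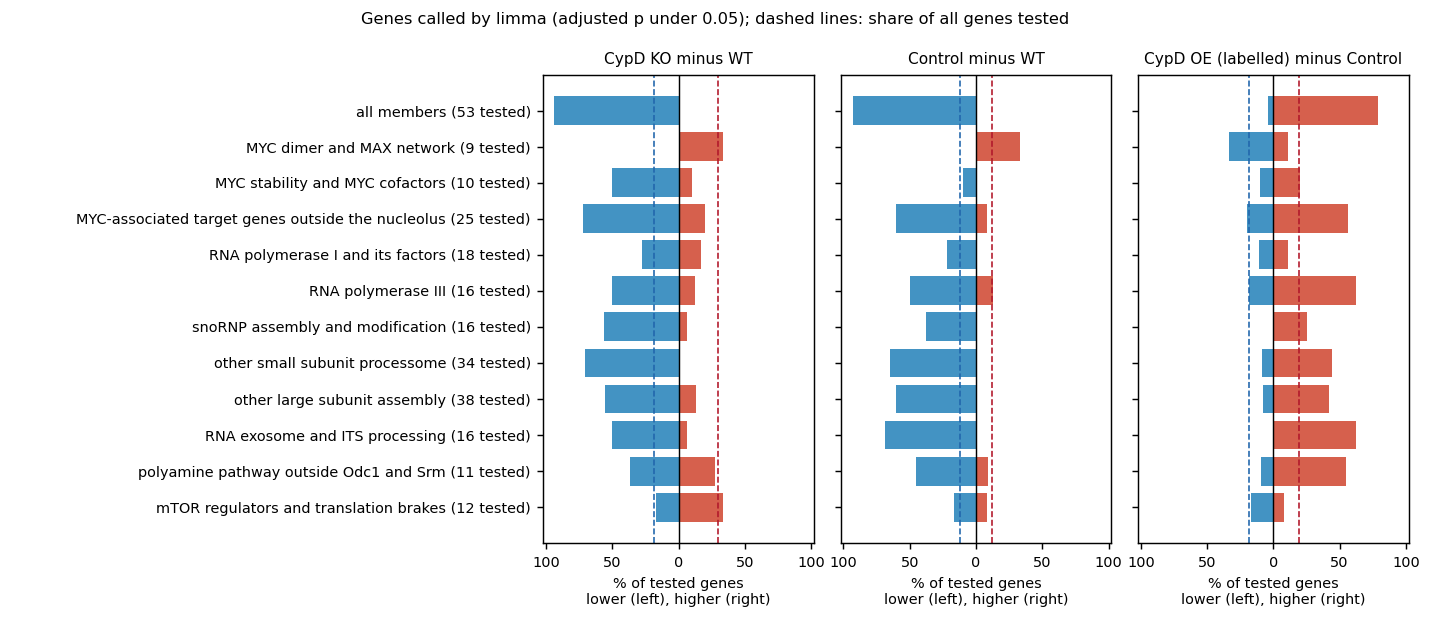
Share of the tested genes of each list (x axis, % lower to the left and % higher to the right) called by limma in CypD KO against WT, Control against WT and CypD OE against Control, with dashed lines at the share of all 13526 genes tested. The member bars are the longest in each panel, to the left in the CypD KO and Control panels and to the right in the CypD OE panel.

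Among the other processing and assembly genes, 24 of 34 small subunit processome genes were lower and 0 higher in CypD KO, and at an unadjusted p under 0.05 the counts were 27 and 0. Of the same 34 genes, 15 were higher and 3 lower in CypD OE against Control. *Aatf* (-0.62 ± 0.037 (adjusted p = 3.06e-05)) and *Wdr46* (-0.61 ± 0.052 (adjusted p = 0.000137)) had the largest CypD KO changes, and the kinase gene *Riok2* (0.66 ± 0.048 (adjusted p = 0.000114)) and the GTPase gene *Bms1* (0.62 ± 0.034 (adjusted p = 3.27e-05)) the largest CypD OE changes, while *Rrp7a* (-0.45) and *Fcf1* (-0.36) were lower in CypD OE than in Control. Of 38 other large subunit genes, 21 were lower and 5 higher in CypD KO, and 16 were higher and 3 lower in CypD OE. *Rrs1* (-1.01 ± 0.036 (adjusted p = 4.03e-06)) and *Nle1* (-0.89 ± 0.111 (adjusted p = 0.000723)) led in CypD KO, and *Mak16* (0.69 ± 0.046 (adjusted p = 8.65e-05)) in CypD OE, while *Nol8* (0.35) was higher in CypD KO. Of 16 snoRNP assembly and rRNA modification genes, 9 were lower and 1 higher in CypD KO, and 4 were higher and 0 lower in CypD OE, with 6 and 2 at an unadjusted p under 0.05. The box C/D protein *Snu13* was lower in CypD KO (-0.44 ± 0.039 (adjusted p = 0.000164)), and the rRNA dimethyltransferase *Dimt1* was higher in CypD OE (0.57 ± 0.063 (adjusted p = 0.000637)). Of 16 RNA exosome and spacer processing genes, 8 were lower and 1 higher in CypD KO, and 10 were higher and 0 lower in CypD OE, with 11 and 0 at an unadjusted p under 0.05. The exosome subunit gene *Exosc5* was the one higher in CypD KO (0.36). The nuclease gene *Dis3* was lower in CypD KO (-0.76 ± 0.040 (adjusted p = 1.86e-05)) and in Control (-0.50 ± 0.040 (adjusted p = 0.000395)).

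The polyamine pathway outside *Odc1* and *Srm* was mixed in CypD KO, with 4 of 11 genes lower and 3 higher, and 6 were higher and 1 lower in CypD OE against Control. The antizyme genes *Oaz1* (-0.52) and *Oaz2* (0.37) differed in direction in CypD KO. Spermine synthase, *Sms*, was lower in CypD KO (-0.62 ± 0.086 (adjusted p = 0.00118)) and higher in CypD OE (0.40 ± 0.086 (adjusted p = 0.0115)). *Azin1*, an inhibitor of the antizymes that destroy ornithine decarboxylase, was higher in CypD KO (0.61 ± 0.074 (adjusted p = 0.000634)), and the catabolic enzymes *Smox* (0.80 ± 0.114 (adjusted p = 0.00206)) and *Sat1* (0.57 ± 0.068 (adjusted p = 0.000996)) were higher in CypD OE.

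Of 12 mTOR regulators and translation brakes, 4 were higher and 2 lower in CypD KO, shares close to those of all genes. Against Control, 1 was higher and 2 were lower in CypD OE. *Ddit4*, an inhibitor of mTOR signalling that low oxygen induces, was at 9.30 and 7.60 TPM in WT, 39.8 and 40.1 TPM in CypD KO, 41.5 and 42.1 TPM in Control and 5.83 and 5.63 TPM in CypD OE. Its log2 fold changes were 2.12 ± 0.092 (adjusted p = 8.46e-06) in CypD KO, 2.18 ± 0.092 (adjusted p = 2.91e-05) in Control against WT and -2.67 ± 0.092 (adjusted p = 4.67e-06) in CypD OE against Control, so that its libraries were high in both groups in which most members were low. *Eif4ebp1*, an inhibitor of cap-dependent translation, was higher in CypD KO (1.01 ± 0.065 (adjusted p = 3.93e-05)) and in CypD OE (0.53 ± 0.065 (adjusted p = 0.00108)), and *Sesn2* was higher in CypD KO (0.96 ± 0.073 (adjusted p = 7.83e-05)). *Deptor*, another mTOR inhibitor, was instead lower in CypD KO (-0.41 ± 0.047 (adjusted p = 0.000505)) and lower in CypD OE than in Control (-0.62 ± 0.047 (adjusted p = 0.000136)).

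The position of the members in the genome was also examined, because chromosome medians differed from 0 in these comparisons. The 53 members lie on every autosome except chromosome 16, and on the X chromosome. In CypD KO against WT the medians of all tested genes ranged from 0.00 on chromosome 18 to 0.26 on chromosome 6, where the member median was -0.49 over all chromosomes. In CypD OE against Control they ranged from -0.18 on chromosome 15 to 0.25 on chromosome 13. *Polr1a* and *Nop2* lie on chromosome 6, whose median was 0.21 in that comparison, and *Nop16* and *Heatr1* on chromosome 13. Relative to the median of their own chromosome, the members' median log2 fold change was -0.54 in CypD KO and 0.33 in CypD OE, and these values were computed after the data had been seen. Copy number was not measured, and its part in the member values was not tested.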

How the data were processed

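Total RNA was depleted of ribosomal RNA and sequenced by the authors as paired-end reads of 150 bases. Trimming used cutadapt 3.4, alignment to GRCm39 used STAR 2.7.8a, and RSEM 1.3.1 gave gene-level estimates. What the authors deposited is TPM per gene, scaled to a fixed total per library, with 2 decimals. Read counts, on which the authors ran DESeq2 1.26.0, were not used here. Because TPM is relative, a rise of abundant transcripts lowers all other values. Depth was estimated from the steps between low TPM: in each library 83.4% to 86.1% of values of up to 6 fragments lay within 0.15 of a whole number, against 30% if evenly spread.

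A gene was tested when 2 or more of the 8 libraries reached 1 TPM, which 13526 genes did. Limma 3.58.1 (R 4.3.3) was fitted to log2(TPM + 1) (a mean for each of 4 groups, eBayes with trend, two-sided). Fold changes on this scale understate those of low genes. P-values were adjusted by Benjamini-Hochberg over all genes tested, with a threshold of 0.05, and values are given ± SE. An exact permutation test of 2 libraries against 2 cannot go below 0.333 and was not used. Of the genes in the table, 54749 were matched in the GENCODE M39 annotation, from which starts, overlaps and promoter windows were taken. Libraries were grouped by their labels, and 0 columns lacked a sample. The 2 libraries of a group correlated at 0.983 to 0.985.

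The members and the 11 pathway lists were chosen with earlier results of these data known. Values in every library are given for *Myc*, *Mycn*, *Npm1*, *Ncl*, *Fbl*, *Odc1*, *Srm*, *Polr1a*, *Polr1b* and *Polr1c*, and for up to 5 members with the largest increase and 5 with the largest decrease in each comparison among those called without overlap of libraries. From each pathway list up to 3 genes a comparison could be named by the same criteria. Values of *Gnl2* were added after they had been seen. Alternatives were a pseudocount of 0.1 TPM, no filter on low TPM, a minimum of 5 TPM, rescaling by median-of-ratios size factors, eBayes without trend, a replicate block, fits of the 4 libraries compared and leaving out each library in turn.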

Additional observations from a re-analysis of the deposited data

How the results depend on the processing

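The calls of *Myc* kept their direction and stayed past the threshold in every alternative fit, with adjusted p-values from 4.84e-06 to 0.000817 in CypD KO against WT, 4.16e-05 to 0.00273 in CypD OE against Control, 0.00117 to 0.0234 in Control against WT and 0.00177 to 0.0199 in CypD OE against WT. Leaving out each library in turn gave 45 to 50 members lower in CypD KO, 35 to 41 higher and 1 to 2 lower in CypD OE against Control, 40 to 47 lower in Control, and 10 to 15 lower in CypD OE against WT. The median of the members then ranged from -0.508 to -0.476 in CypD KO, from 0.318 to 0.339 in CypD OE against Control, from -0.410 to -0.395 in Control and from -0.128 to -0.097 in CypD OE against WT. Median-of-ratios rescaling moved these medians to -0.586 in CypD KO, -0.409 in Control and -0.132 in CypD OE against WT, chromosome medians moved them to -0.544 in CypD KO and -0.406 in Control, and a pseudocount of 0.1 TPM gave 0.348 in CypD OE against Control. The members lower in CypD OE against Control were 1 rather than 2 without the filter, without the trend, with the replicate block and with the 4 libraries alone, since *Bop1* then missed the threshold.

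Single libraries turned the direction of values that were not called. In CypD OE against Control, leaving out each library moved *Ddx56* from -0.031 (Control replicate 1 left out) to 0.228 (Control replicate 2 left out, adjusted p = 0.0314). *Imp4* moved from -0.052 to 0.039 (Control replicate 2 left out), with 0.016 for CypD OE replicate 2, and *Polr1c* from -0.091 (Control replicate 1 left out) to 0.141, with -0.014 for CypD OE replicate 1. In Control against WT *Gar1* moved from -0.003 (Control replicate 2 left out) to 0.058. In CypD OE against WT, *Wdr12* moved from -0.091 to 0.007 and *Wdr43* from -0.113 to 0.003, both with WT replicate 2 left out. *Polr1c* was called lower in CypD KO with rescaling (adjusted p = 0.025) and without CypD KO replicate 1 (0.0376), and *Ddx56* lost its call in Control against WT without WT replicate 1 (0.0668) or 2 (0.0521). Of 1140 values of named members under 15 settings, 1090 kept direction and call, 37 lost it, 5 gained it and 8 changed sign. Of 1440 counts of called genes in the 11 pathway lists and over all genes, 1233 stayed within 1.5 times and the others moved further. Without the trend, *Polr1a* in CypD KO (adjusted p = 0.0935) and *Npm1* (0.0757) and *Ddx56* (0.0587) in CypD OE against WT lost their calls. Over all genes, Control against WT gave 1634 higher and 1635 lower, and with only its 4 libraries 998 and 983.

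The libraries of a group share replicate numbers with other groups by name only. Deviations of same-numbered libraries correlated at 0.108 between CypD KO and WT and at -0.0186 to -0.00175 in the other planned comparisons. With a replicate block, 49 members were lower in CypD KO, 40 were higher and 1 lower in CypD OE against Control, 45 were lower in Control, and 15 were lower and 2 higher in CypD OE against WT. Over all genes the block gave 2391 lower in CypD KO, 2393 higher and 2342 lower in CypD OE against Control, and 1438 lower in Control. In CypD OE against WT it gave 1699 lower and 1718 higher. The block ended the calls of *Polr1a* in CypD KO (adjusted p = 0.0533) and *Bop1* in CypD OE against Control (0.0527). TPM hold no counts, so the precision of single values rests on 2 libraries a group and the shared spread.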
